A study of Homo sapiens with 8 samples.

Results

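A set of 10 genes of the Notch pathway, listed by name, were followed across 3 culture substrates. They comprised the receptors NOTCH1, NOTCH2 and NOTCH3, the ligands DLL1, DLL3, JAG1 and JAG2, and the target genes HES1, HES5 and HEY1. All 10 were present among the 23350 genes of the deposited normalized table, and 9 of them were tested among 18201 genes from the transcript estimates. NOTCH1 was the exception and was read from the normalized table alone. The study differentiated the human embryonic stem cell line H9, an established line, into oligodendrocyte progenitor cells (OPCs), and polyadenylated RNA was sequenced after 2 days on a coated plate. The control coating was Matrigel, a basement membrane extract from a mouse tumour (replicates 2 and 3). The other coatings were VN, from the matrix protein vitronectin, and VNP2, a designed peptide derived from vitronectin (3 replicates each). All groups shared 1 cell line and the same OPC medium, so differences between lines were not sampled. The labels name replicates and not separate cultures, so the p-values measure the spread between these libraries, which may be technical.

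Notch receptors are cut by proteases after they bind a Delta-like (DLL) or Jagged (JAG) ligand on a neighbouring cell. The freed intracellular part joins the DNA-binding protein RBPJ and switches on transcriptional repressors of the HES and HEY families, which hold back proneural factors. DLL3 differs from the other ligands in that it acts mainly inside the cell that makes it, as an inhibitor. In the oligodendrocyte lineage Notch signalling is known for keeping progenitors undifferentiated.

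The libraries held 37997896 to 39429453 estimated counts. Libraries of 1 substrate were close to each other, except that VN replicate 1 stood apart from the other VN libraries. The median chi-square between libraries over genes was 3.84 and 4.64 for the pairs with VN replicate 1, 0.843 for the other VN pair and 0.752 to 1.51 within the other substrates, where sampling alone gives 0.455. Of 7 OPC markers, 5 reached a mean of 1 TPM, the count per length scaled to a fixed library total. The sum of all 7 was 215 to 217 TPM on Matrigel, 282 to 296 on VN and 310 to 334 on VNP2. PTPRZ1 alone averaged 108, 151 and 178 TPM, so it made up much of these sums and of their rise. Its matched transcripts were incomplete, giving 0.787 of its value in the deposited normalized table. Of the 5 OPC markers tested from the transcript estimates, OLIG1 and OLIG2 were higher on VN than on Matrigel (adjusted p under 0.05, background 5.66%). All 5, with NKX2-2, PDGFRA and CSPG4, were higher on VNP2 than on Matrigel (background 7.44%). NKX2-2 was also higher on VNP2 than on VN, by 0.26 on the log2 scale (adjusted p = 0.0254). SOX10, a defining factor of the oligodendrocyte lineage, had 20 estimated counts over all 8 libraries, so that this marker was near 0 in cells labelled as OPCs.

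HES1 and HES5 are the best known direct targets of the RBPJ complex, and their promoters are shown because both carry its core letters more than once. The RefSeq promoter table (GRCh38.p14) had entries for 7 of the 10 genes, and DLL1, DLL3 and HEY1 had none. TGGGAA was searched on both strands (TTCCCA on the other) in the 240 bases from 250 to 11 before the start, in which occurrences of the motif cannot overlap. The windows shown are chr3:194135898-194136137 (plus strand) for HES1 and chr1:2530274-2530513 (minus strand) for HES5, written 5′ to 3′ along the gene with the motif in capitals.
HES1: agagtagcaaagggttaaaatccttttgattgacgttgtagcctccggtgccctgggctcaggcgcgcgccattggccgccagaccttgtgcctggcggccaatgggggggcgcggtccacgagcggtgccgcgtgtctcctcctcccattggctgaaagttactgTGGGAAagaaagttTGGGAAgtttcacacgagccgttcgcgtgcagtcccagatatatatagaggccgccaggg
HES5: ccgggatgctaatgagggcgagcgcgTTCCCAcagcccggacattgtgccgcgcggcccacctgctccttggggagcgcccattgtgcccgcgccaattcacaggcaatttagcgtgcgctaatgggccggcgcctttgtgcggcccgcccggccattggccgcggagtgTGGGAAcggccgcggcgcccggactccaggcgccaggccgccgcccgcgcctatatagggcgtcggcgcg
In HES1 the 2 matches began 84 and 70 bases before the start on the same strand. In HES5 they began 224 and 80 bases before it, on opposite strands. Among all 35116 promoters, 20.2% held at least 1 match and 2.71% held at least 2. The windows of NOTCH1, NOTCH2, NOTCH3, JAG1 and JAG2 held none. Matches did not mark every target, since among 8 further genes listed with the targets the windows of NRARP, HES2, HES6 and HES7 held none. Those of HES3, HES4 and HEY2 held 1 each, and that of HEYL held 2. A match is a run of letters and not a measured binding site, and no binding was assayed here.

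Across the 3 substrates 8 of the 9 tested genes were called, meaning an adjusted p under 0.05, where 19.3% of all tested genes were called. On VN against Matrigel 8 of the 9 were called (background 15.3%), on VNP2 against Matrigel 7 (background 16.6%) and on VNP2 against VN 2 (background 5.1%), none of them higher (background 3.09%) and both lower (background 2.01%). DLL1, DLL3 and targets of the HES and HEY families were higher on the vitronectin substrates, and NOTCH2, NOTCH3 and JAG1 were lower. On VN 5 genes rose (DLL1, DLL3, HES1, HES5 and HEY1), where 5.66% of all tested genes rose, and 3 fell, where 9.6% of all fell. On VNP2 4 rose (DLL1, DLL3, HES1 and HEY1; background 7.44%) and the same 3 fell (background 9.13%). The median log2 fold change of the 9 genes was 0.19 on VN and 0.21 on VNP2, beside 0.00436 and 0.00243 over all tested genes. Both comparisons use the same 2 Matrigel libraries, so they are not independent of each other. Values of the compared libraries were fully apart for 8, 8 and 6 of the 9 genes in the comparisons of VN with Matrigel, VNP2 with Matrigel and VNP2 with VN, where 44.4, 48.1 and 23.6% of all tested genes were apart.

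**Figure D1:**
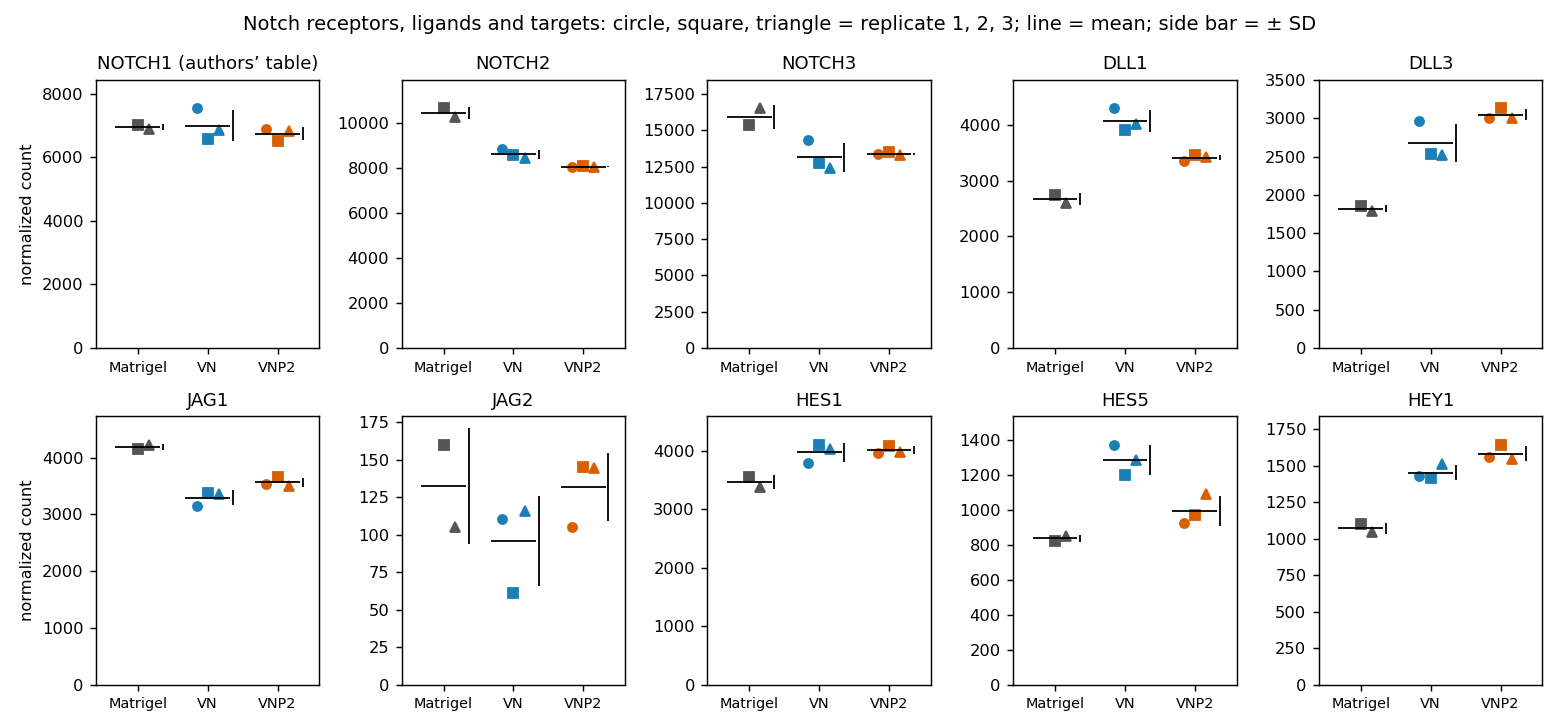
Normalized count (vertical axis, from 0) of each of the 10 genes by substrate, with circle, square and triangle for replicates 1, 2 and 3, a line at the mean and a side bar of ± SD. All VN and VNP2 libraries lie above both Matrigel libraries for DLL1, DLL3, HES1, HES5 and HEY1 and below them for NOTCH2, NOTCH3 and JAG1.

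Among the receptors, NOTCH2 and NOTCH3 were lower on both vitronectin substrates and NOTCH1 was not called in any comparison. NOTCH2 (ENSG00000134250, chr1:119911553-120069626 in GRCh38) is a broadly expressed receptor of progenitor cells. Normalized counts were 10633 and 10241 on Matrigel, compared with 8828, 8558 and 8425 on VN and 8049, 8086 and 8037 on VNP2. The 3 groups did not overlap, and the VNP2 libraries were closest to each other. NOTCH2 averaged 10437 ± 277 (SD, n = 2) on Matrigel, 8603 ± 205 (SD, n = 3) on VN and 8057 ± 25.5 (SD, n = 3) on VNP2. It fell by 0.28 on the log2 scale on VN (SE 0.0347, adjusted p = 0.000443) and by 0.37 on VNP2 (SE 0.0347, adjusted p = 4.07e-05). Between VNP2 and VN the log2 difference was -0.09 (SE 0.0313, adjusted p = 0.124). In RNA from whole cultures, fewer cells of a type and less RNA per cell cannot be told apart, here and in every result that follows.

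NOTCH2 has near-identical partial copies, the NOTCH2NL genes, and estimated counts may be divided between them, so its level is uncertain to that extent. NOTCH2NLA averaged 393, 388 and 357 normalized counts for Matrigel, VN and VNP2. In the normalized table NOTCH2NLB averaged 62.1, 50.2 and 47.2, NOTCH2NLC 646, 565 and 470, and NOTCH2NLR 75.2, 60.6 and 51.3. None of the 4 copies was called in any comparison, and each was far below NOTCH2.

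NOTCH3 (ENSG00000074181, chr19:15159038-15200981) is the receptor best known from pericytes and vascular smooth muscle and is also made by neural progenitors. Normalized counts were 15331 and 16493 in the Matrigel libraries, 14292, 12710 and 12411 in those from VN and 13341, 13470 and 13308 in those from VNP2. Both Matrigel libraries lay above the other 6, with VN replicate 1 the nearest to them. In the same order, NOTCH3 averaged 15912 ± 822 (SD, n = 2), 13138 ± 1011 (SD, n = 3) and 13373 ± 85.6 (SD, n = 3). It fell by 0.28 on VN (SE 0.0565, adjusted p = 0.00881) and by 0.25 on VNP2 (SE 0.0565, adjusted p = 0.0122). VNP2 and VN overlapped, with a log2 difference of 0.03 (SE 0.0508, adjusted p = 0.834). Without offsets for transcript length neither fall was called (-0.16, adjusted p = 0.0831, and -0.14, adjusted p = 0.144). Nor was either called without Matrigel replicate 3 (-0.22, adjusted p = 0.101, and -0.20, adjusted p = 0.136).

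The transcripts of NOTCH3 differed in how they varied. The main transcript, NOTCH3-201, stood at 75.8 and 75.8 TPM on Matrigel, compared with 75.2, 72.5 and 71.9 on VN and 72.0, 72.8 and 71.7 on VNP2. Over all genes, TPM was higher than on Matrigel by a median log2 difference of 0.0857 on VN and 0.0685 on VNP2. These values thus understate a fall relative to other genes. NOTCH3-206, the second in level, made up 15.35, 13.82 and 16% of the gene's TPM on Matrigel, VN and VNP2. NOTCH3-204, a short transcript of the 3′ part of the gene (chr19:15162333-15165967), stood at 5.43 and 10.8 TPM in the Matrigel libraries, 0.9215, 3.37 and 0 in those from VN and 0, 1.24 and 2.17 in those from VNP2. It made up 8.03% of the gene's TPM on Matrigel, 1.65% on VN and 1.29% on VNP2. The short transcript thus took part in the gene's average length and was highest in the Matrigel libraries, above all in replicate 3. How far it enters the gene's fall was not tested.

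NOTCH1 (ENSG00000148400, chr9:136494433-136545786) is the receptor most studied in neural progenitors. In the normalized table it stood at 7015 and 6878 on Matrigel, compared with 7530, 6577 and 6870 on VN and 6894, 6497 and 6836 on VNP2. The 3 groups overlapped. Among all genes tested there, 16.8, 17.7 and 5.58% were called for VN against Matrigel, VNP2 against Matrigel and VNP2 against VN, and 21.1% across the substrates. NOTCH1 averaged 6947 ± 96.8 (SD, n = 2), 6992 ± 488 (SD, n = 3) and 6742 ± 214 (SD, n = 3). Its log2 differences in limma were 0.0072 for VN against Matrigel (SE 0.0538, adjusted p = 0.946), -0.04 for VNP2 against Matrigel (SE 0.0538, adjusted p = 0.646) and -0.05 for VNP2 against VN (SE 0.0481, adjusted p = 0.604).

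The ligands split by family, with both Delta-like genes higher and JAG1 lower on the vitronectin substrates. DLL1 (ENSG00000198719, chr6:170282206-170306565) is an activating ligand carried by cells that begin to differentiate. Its normalized counts were 2743 and 2594 in the Matrigel libraries, 4289, 3898 and 4018 in those from VN and 3356, 3453 and 3414 in those from VNP2. The groups were apart, with VN highest, VNP2 between and Matrigel lowest. DLL1 averaged 2669 ± 105 (SD, n = 2), 4068 ± 201 (SD, n = 3) and 3408 ± 48.7 (SD, n = 3). It rose by 0.61 on the log2 scale on VN (SE 0.0497, adjusted p = 2.39e-05) and by 0.35 on VNP2 (SE 0.0496, adjusted p = 0.000727). VNP2 was below VN by a called difference of -0.26 (SE 0.0434, adjusted p = 0.00689). All 3 calls held in each of the 16 alternative analyses.

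DLL3 (ENSG00000090932, chr19:39498895-39508481), the inhibitory member of the family, had its highest levels on VNP2. Normalized counts were 1854 and 1786 on Matrigel, compared with 2961, 2540 and 2521 on VN and 3006, 3128 and 3004 on VNP2. All VNP2 libraries lay above all VN libraries, although VN replicate 1 came close. DLL3 averaged 1820 ± 48.4 (SD, n = 2), 2674 ± 249 (SD, n = 3) and 3046 ± 71.0 (SD, n = 3). It rose by 0.56 on VN (SE 0.0696, adjusted p = 0.000467) and by 0.74 on VNP2 (SE 0.0695, adjusted p = 4.27e-05). The difference of VNP2 from VN was 0.19 (SE 0.0599, adjusted p = 0.114). It was called without VN replicate 1 (0.27, adjusted p = 0.00365), and with no filter on low counts (0.19, adjusted p = 0.0455). DLL3-202 made up 73.0, 76.2 and 76.0% of the gene's TPM on Matrigel, VN and VNP2, and DLL3-201 made up 23.3, 21.8 and 21.5%.

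JAG1 (ENSG00000101384, chr20:10637684-10673999) is an activating ligand of neural progenitors and of vessel walls. Normalized counts were 4151 and 4220 in the Matrigel libraries, 3146, 3379 and 3360 in those from VN and 3536, 3656 and 3504 in those from VNP2. Matrigel was highest, VN lowest and VNP2 between, with no overlap. JAG1 averaged 4185 ± 49.1 (SD, n = 2), 3295 ± 129 (SD, n = 3) and 3566 ± 80.2 (SD, n = 3). It fell by 0.35 on VN (SE 0.0433, adjusted p = 0.000474) and by 0.23 on VNP2 (SE 0.0433, adjusted p = 0.00436), and the difference of VNP2 from VN was 0.11 (SE 0.0393, adjusted p = 0.140). Without Matrigel replicate 3 the fall on VNP2 was not called (-0.22, adjusted p = 0.0516). The main coding transcript JAG1-201 took 91.9% of the gene's TPM on Matrigel, 87.6% on VN and 86.6% on VNP2, while JAG1-204, a transcript with a retained intron, took 1.80, 3.16 and 6.26%.

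JAG2 (ENSG00000184916, chr14:105140981-105168824), the other Jagged ligand, was scarce, with 935 estimated counts in all libraries together. Its normalized counts were 160 and 105 on Matrigel, compared with 111, 61.3 and 116 on VN and 105, 145 and 145 on VNP2. The groups overlapped, and libraries of 1 substrate lay far apart relative to their level. The log2 differences were -0.47 for VN against Matrigel (SE 0.281, adjusted p = 0.295), -0.0022 for VNP2 against Matrigel (SE 0.277, adjusted p = 0.997) and 0.47 for VNP2 against VN (SE 0.254, adjusted p = 0.348).

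The 3 target genes were higher on VN, and HES1 and HEY1 were also called higher on VNP2. HES1 (ENSG00000114315, chr3:194136145-194138732), a repressor that keeps progenitors cycling, stood at 3556 and 3389 normalized counts in the Matrigel libraries, 3793, 4096 and 4034 in those from VN and 3971, 4088 and 3979 in those from VNP2. Both Matrigel libraries lay below the other 6, and VN and VNP2 overlapped. HES1 averaged 3473 ± 118 (SD, n = 2), 3975 ± 160 (SD, n = 3) and 4013 ± 65.4 (SD, n = 3). Its rise was the smallest of the called ones, 0.19 on VN (SE 0.0450, adjusted p = 0.0160) and 0.21 on VNP2 (SE 0.0450, adjusted p = 0.00973), with 0.01 between VNP2 and VN (SE 0.0398, adjusted p = 0.890). Without Matrigel replicate 3 neither rise was called (0.16, adjusted p = 0.147, and 0.18, adjusted p = 0.111), and without VN replicate 2 the rise on VN was not (0.17, adjusted p = 0.0505).

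HES5 (ENSG00000197921, chr1:2528745-2530245), a repressor whose level in neural progenitors follows Notch activity closely, was highest on VN. Normalized counts were 820 and 851 on Matrigel, compared with 1368, 1199 and 1286 on VN and 923, 970 and 1090 on VNP2. The 3 groups did not overlap, with VNP2 between the others. HES5 averaged 836 ± 21.9 (SD, n = 2), 1284 ± 84.2 (SD, n = 3) and 995 ± 85.9 (SD, n = 3). It rose by 0.62 on VN (SE 0.0825, adjusted p = 0.000678). On VNP2 the difference from Matrigel was 0.25 (SE 0.0827, adjusted p = 0.0652), which was not called, and the difference from VN was -0.37 (SE 0.0718, adjusted p = 0.0145), which was. The VNP2 difference from Matrigel was called without VN replicate 1 (adjusted p = 0.0454), without VNP2 replicate 1 (adjusted p = 0.0459) and with no filter (adjusted p = 0.0409). The difference between VNP2 and VN was not called without VN replicate 3 (adjusted p = 0.0512), VNP2 replicate 1 (adjusted p = 0.0652) or VNP2 replicate 2 (adjusted p = 0.0584), nor without length offsets (-0.33, adjusted p = 0.0584).

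HEY1 (ENSG00000164683, chr8:79764010-79767863), a repressor of the related HEY family, stood at 1100 and 1045 normalized counts in the Matrigel libraries, 1429, 1416 and 1515 in those from VN and 1560, 1640 and 1547 in those from VNP2. All VNP2 libraries lay above all VN libraries, and these above Matrigel. HEY1 averaged 1072 ± 38.6 (SD, n = 2), 1453 ± 53.7 (SD, n = 3) and 1582 ± 50.7 (SD, n = 3). It rose by 0.44 on VN (SE 0.0567, adjusted p = 0.000569) and by 0.56 on VNP2 (SE 0.0567, adjusted p = 7.25e-05), and the difference of VNP2 from VN was 0.12 (SE 0.0492, adjusted p = 0.201). Both rises held in all 16 alternative analyses. Its main transcript HEY1-202 made up 74.5, 73.9 and 75.0% of the gene's TPM on the 3 substrates.

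**Figure D2:**
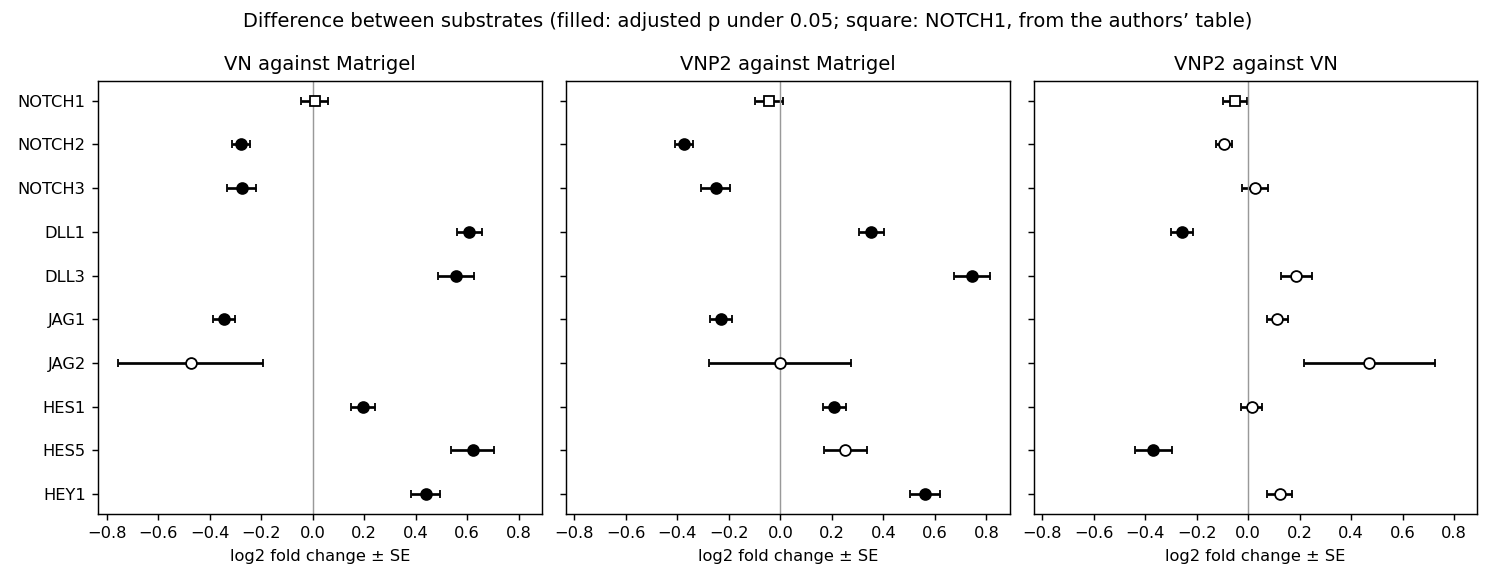
Log2 fold change ± SE (horizontal axis) of the 10 genes in the 3 comparisons, with filled points for an adjusted p under 0.05 and a square for NOTCH1, which came from the authors' normalized table. DLL1, DLL3 and HEY1 lie to the right and NOTCH2, NOTCH3 and JAG1 to the left of 0 against Matrigel in both panels, and only DLL1 and HES5 are filled in the comparison of VNP2 with VN.

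Some markers of other cell types also differed between Matrigel and the vitronectin substrates. The summed level of 9 pericyte and smooth muscle markers was 616 to 643 TPM on Matrigel, 172 to 183 on VN and 142 to 172 on VNP2, so that it was lower where NOTCH2, NOTCH3 and JAG1 were lower. Most of the sum was TAGLN, with means of 497, 121 and 106 TPM on Matrigel, VN and VNP2. Of the 7 markers tested, 4 fell on each vitronectin substrate (background 9.6 and 9.13%), namely RGS5, ACTA2, TAGLN and CNN1. PDGFRB, KCNJ8 and ABCC9 were not called against Matrigel, and MYH11 was near 0 in all groups. Between VNP2 and VN, PDGFRB was higher by 0.40 (adjusted p = 0.0234) and RGS5 lower by 0.79 (adjusted p = 0.000476). The summed level of 8 neuron markers was 898 to 933 TPM on Matrigel, 1026 to 1064 on VN and 1069 to 1085 on VNP2. It was lowest on Matrigel, as were DLL1, DLL3 and the target genes, although DLL1 and HES5 were highest on VN. Most of the sum was TUBB3, at 548, 551 and 569 TPM, which was not called. On each vitronectin substrate 5 of the 8 rose (background 5.66 and 7.44%). Between VNP2 and VN, DCX and STMN2 were called higher and MAP2 lower (-0.16, adjusted p = 0.0367). The 8 markers of neural progenitors and radial glia summed to 3476 to 3552, 2906 to 2971 and 3217 to 3265 TPM, with PAX6 near 0. Most of that sum was VIM, which fell on both vitronectin substrates as did NES, while FABP7 and SLC1A3 rose on VNP2, by 0.41 (adjusted p = 0.000985) and 0.28 (adjusted p = 0.0308). The part of these cell types in the changes of the Notch genes was not tested.

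For the remaining marker lists, summed levels on Matrigel, VN and VNP2 were 504 to 515, 574 to 610 and 493 to 527 TPM for 7 mesenchymal markers. Members of that list went both ways. On VNP2 COL1A1 fell by 1.41 (adjusted p = 3e-07) and PRRX1 by 0.58 (adjusted p = 0.00174), where 9.13% of all tested genes fell. The other 5 rose there, by 0.28 to 0.47 (background 7.44%). Summed levels were 92.1 to 97.0, 83.3 to 85.3 and 76.3 to 79.8 TPM for 6 pluripotency markers and 24.7 to 25.5, 27.2 to 29.5 and 29.6 to 30.9 for 8 neural crest markers, of which SOX10 and PAX3 were near 0. Of the pluripotency markers, POU5F1 fell on VNP2 by 1.26 (adjusted p = 0.00176) and LIN28A by 0.67 (adjusted p = 6.97e-06), TDGF1 also fell (adjusted p = 0.0142), and DPPA4 rose by 0.18 (adjusted p = 0.0411). On VN only LIN28A was called, lower by 0.56 (adjusted p = 3.58e-05). POU5F1 and TDGF1 were called lower on VNP2 than on VN, by 1.56 (adjusted p = 0.000767) and 2.44 (adjusted p = 0.00121). Endothelial markers (7, with PECAM1 and VWF near 0) summed to 19.9 to 21.3, 21.3 to 24.9 and 21.5 to 22.5 TPM. Most of that sum was KDR and CLDN5, which were not called, and it hid falls of scarcer members. CDH5, with 175 estimated counts, fell by 1.93 on VN (adjusted p = 0.00535) and by 1.60 on VNP2 (adjusted p = 0.00959). TEK fell by 0.996 on VN (adjusted p = 0.00159) and by 1.36 on VNP2 (adjusted p = 0.00016). The 4 astrocyte markers, with AQP4 near 0, summed to 4.05 to 4.24, 3.71 to 4.93 and 3.45 to 4.04 TPM.

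Per transcript length, the 9 genes with a matched level had HES1 at the top and JAG2 at the bottom on each substrate, with changes of order between them. On Matrigel the mean levels in TPM were 119 for HES1, 99.7 for NOTCH3, 57.8 for DLL3, 42.0 for NOTCH2, 39.2 for HES5, 35.3 for JAG1, 32.5 for DLL1, 27.5 for HEY1 and 1.39 for JAG2. On VN the order was HES1 at 144, DLL3 at 89.9, NOTCH3 at 87.1, HES5 at 63.8, DLL1 at 52.5, HEY1 at 39.5, NOTCH2 at 36.7, JAG1 at 29.4 and JAG2 at 1.06 TPM. DLL3 (85.7 to 97.8) and NOTCH3 (83.2 to 93.1) overlapped there, so their order is not resolved. On VNP2 the levels were 144 for HES1, 101 for DLL3, 87.8 for NOTCH3, 48.9 for HES5, 43.5 for DLL1, 42.6 for HEY1, 34.0 for NOTCH2, 31.5 for JAG1 and 1.45 for JAG2, with DLL1 (42.8 to 44.1) and HEY1 (41.8 to 44.1) overlapping. The Delta-like ligands thus stood below NOTCH3 on Matrigel and DLL3 stood level with or above it on the other substrates. TPM levels shifted as a whole, with a median log2 difference over 17973 genes of 0.0857 for VN and 0.0685 for VNP2 against Matrigel.

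**Figure D3:**
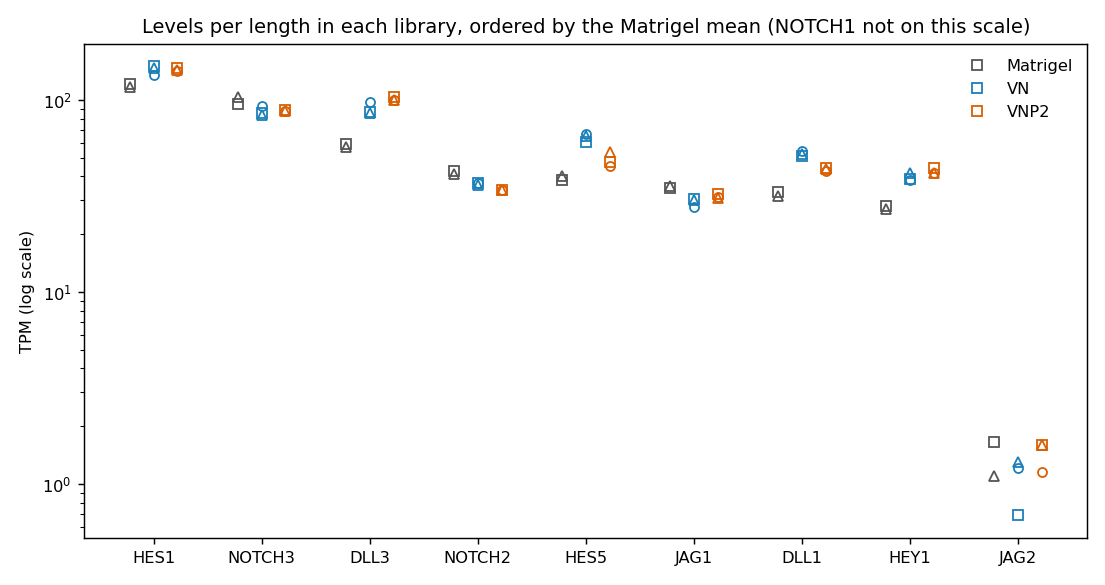
TPM on a log scale (vertical axis) of the 9 genes with a matched level, 1 point per library, coloured by substrate and ordered by the Matrigel mean. DLL3 moves from 57.8 TPM on Matrigel to 101 on VNP2, and JAG2 lies far below the other genes on every substrate.

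Ratios of these levels within a library show the balance between family members, and they were chosen after the values were seen. Exact two-sided permutation tests of the 4 ratios cannot give a p below 0.1 with these group sizes, so they are given as a description. The sum of DLL1 and DLL3 over the sum of JAG1 and JAG2 was 2.52 and 2.41 on Matrigel, compared with 5.29, 4.40 and 4.37 on VN and 4.42, 4.38 and 4.41 on VNP2. Within the Delta-like pair, DLL3 over DLL1 was 1.76 and 1.79 in the Matrigel libraries, 1.80, 1.70 and 1.63 in those from VN and 2.33, 2.36 and 2.29 in those from VNP2. VNP2 therefore stood apart from both other substrates in the balance of DLL3 to DLL1, which on VN lay around the Matrigel level. HES5 over HES1 was 0.317 and 0.345 on Matrigel, compared with 0.496, 0.403 and 0.438 on VN and 0.320, 0.326 and 0.376 on VNP2, so that here VN was the one above the others. NOTCH3 over NOTCH2 was 2.25 and 2.51 on Matrigel, compared with 2.52, 2.31 and 2.29 on VN and 2.58, 2.59 and 2.58 on VNP2, where it lay above all other libraries.

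**Figure D4:**
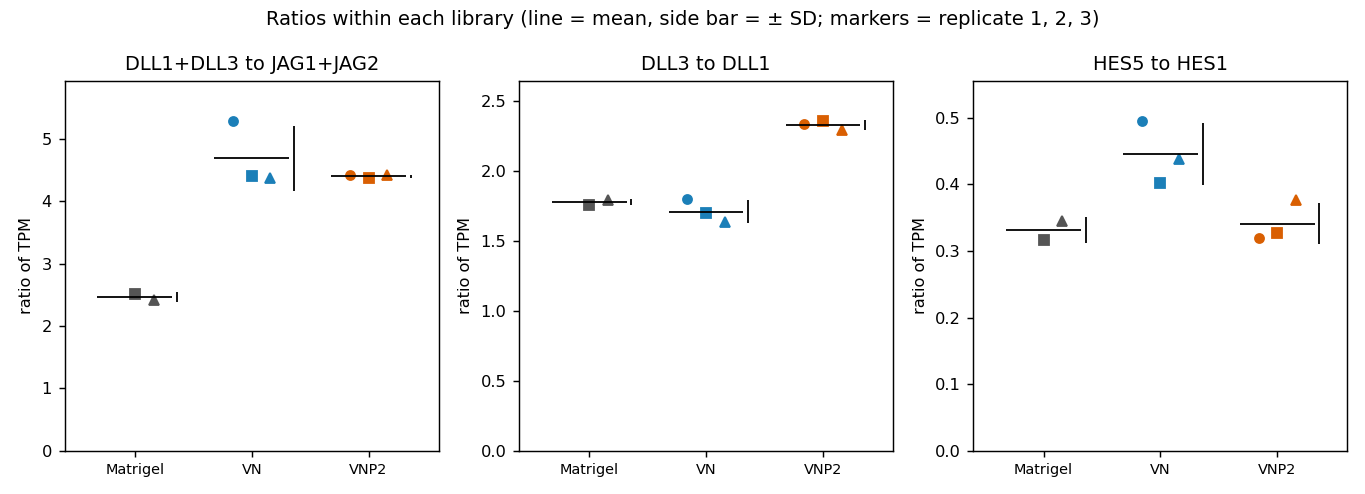
Ratios of TPM within each library (vertical axes, from 0) for Delta-like over Jagged ligands, DLL3 over DLL1 and HES5 over HES1, with the mean as a line and ± SD as a side bar. The first ratio lies between 4.37 and 5.29 on the vitronectin substrates and at 2.41 and 2.52 on Matrigel, the second is highest on VNP2 and the third on VN.

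The other genes of the pathway were taken from 6 lists by role, 54 genes in all, of which 50 were tested. On VN 8 of them were called, 6 higher and 2 lower, or 16% beside the background of 15.3%. On VNP2 16 were called, 13 higher and 3 lower, or 32% beside 16.6%, and between VNP2 and VN 3 were called, or 6% beside 5.1%. The median log2 fold change was 0.05 on VN and 0.06 on VNP2, with members that went both ways. Single libraries weighed on these counts. The VN count was 1 without Matrigel replicate 3, 3 without Matrigel replicate 2 and 4 without VN replicate 3, and the VNP2 count was 7 without Matrigel replicate 2 and 8 without Matrigel replicate 3. Without VN replicate 1 the counts were 10, 17 and 4.

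Of 8 other receptors and ligands 7 were tested, and none was called on VN (background 15.3%). DLL4, another Delta-like ligand, was scarce, with 757 estimated counts, and was not called in any comparison. Against Matrigel it differed by 0.16 on VN (SE 0.183, adjusted p = 0.608) and 0.47 on VNP2 (SE 0.182, adjusted p = 0.113). NOTCH4, a receptor known from endothelium, rose on VNP2 by 0.47 (SE 0.0943, adjusted p = 0.00651), with 200 and 206 normalized counts on Matrigel and 272 to 297 on VNP2. DNER, a neuronal transmembrane protein described as a non-canonical ligand, rose by 0.36 (SE 0.0632, adjusted p = 0.0029). DLK1, a non-canonical ligand that lacks the domain needed to activate the receptor, was the most abundant gene of the list, at 44743 normalized counts for Matrigel, 49279 for VN and 47771 for VNP2, and was not called.

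Of 5 enzymes that add sugars to the receptors, 2 were called on VNP2 (background 16.6%) and none on VN (background 15.3%). LFNG, a fringe enzyme that tunes receptors toward Delta-like ligands, rose by 0.35 (SE 0.0870, adjusted p = 0.0205), and POFUT1, which adds the first fucose and was the most abundant of the list, fell by 0.17 (SE 0.0422, adjusted p = 0.0216). Among 9 genes of receptor cleavage, FURIN, which makes the first cut, fell by 0.30 on VN (SE 0.050, adjusted p = 0.00295) and by 0.36 on VNP2 (SE 0.050, adjusted p = 0.000651). APH1B, a subunit of gamma-secretase, rose by 0.23 on VN (adjusted p = 0.0143) and 0.22 on VNP2 (adjusted p = 0.0169). On VNP2 PSEN2, a catalytic subunit of the same complex, rose by 0.29 (adjusted p = 0.0486) and the sheddase ADAM17 fell by 0.15 (adjusted p = 0.0303). ADAM10, the sheddase that cuts ligand-bound receptors, was the most abundant of the list at 141, 146 and 155 TPM and was not called.

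Of 12 genes of the nuclear complex and its partners, MAML3, a coactivator, rose by 0.20 on VN (SE 0.0503, adjusted p = 0.0252) and by 0.36 on VNP2 (SE 0.0502, adjusted p = 0.000691). RBPJ itself, which recognises the letters shown in the HES1 and HES5 promoters, stood at 6893 and 6936 normalized counts on Matrigel, 7301 to 7593 on VN and 6537 to 6951 on VNP2. It was called only between VNP2 and VN, with a difference of -0.15 (SE 0.0340, adjusted p = 0.0333). SNW1, a partner of the complex, was the most abundant of the list at 85.8, 90.7 and 90.6 TPM and was not called.

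Of 12 genes of ligand endocytosis and receptor turnover, 11 were tested. MIB1, the ubiquitin ligase that lets ligands pull on receptors, rose by 0.14 on VN (adjusted p = 0.0304) and by 0.14 on VNP2 (adjusted p = 0.0299). DTX4, a Deltex ubiquitin ligase and the most abundant of the list, rose by 0.15 on VN (adjusted p = 0.0304) and 0.20 on VNP2 (adjusted p = 0.00873). NEURL1B, a ligase of the Neuralized family, fell by 0.22 on VN (adjusted p = 0.0306). On VNP2 its relative NEURL1 rose by 0.59 (SE 0.135, adjusted p = 0.0135), DTX3 by 0.28 (SE 0.0683, adjusted p = 0.0186) and DTX1 by 0.48 (SE 0.0900, adjusted p = 0.00438). DTX1 also differed between VNP2 and VN by 0.56 (SE 0.0793, adjusted p = 0.0026), with 333 to 350 normalized counts on VNP2 and 223 to 244 on VN. ITCH was read from the normalized table and was not called.

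Another 8 genes, NRARP and members of the HES and HEY families, were listed with the targets. Of these 6 were tested, since HES2 and HES3 were too low. NRARP, a target that dampens Notch signalling in return, rose by 0.36 on VN (SE 0.0675, adjusted p = 0.00538) and 0.24 on VNP2 (SE 0.0676, adjusted p = 0.0355). HEY2, a relative of HEY1, stood at 192 and 173 normalized counts in the Matrigel libraries, 196, 186 and 185 in those from VN and 287, 317 and 297 in those from VNP2. It was higher on VNP2 alone, by 0.72 against Matrigel (SE 0.103, adjusted p = 0.000854) and 0.67 against VN (SE 0.0907, adjusted p = 0.00193), whereas VN and Matrigel overlapped (0.05, SE 0.105, adjusted p = 0.786). HES6, which antagonises HES1 and was the most abundant of the list, rose by 0.29 on VN (SE 0.0869, adjusted p = 0.0490), where VN replicate 1 was highest. HES4, HES7 and HEYL were not called in any comparison.

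Several proneural factors and factors of young neurons, genes that promote the neuronal fate, were also called. Of all tested genes 15.3% were called on VN and 16.6% on VNP2. INSM1, a factor of newly formed neurons, stood at 892 and 918 normalized counts on Matrigel, compared with 1479, 1553 and 1599 on VN and 1395, 1460 and 1361 on VNP2. All 6 libraries from the vitronectin substrates lay above both Matrigel libraries. INSM1 rose by 0.77 on VN (SE 0.0582, adjusted p = 1.41e-05) and 0.63 on VNP2 (SE 0.0582, adjusted p = 3.7e-05). The remaining calls were of scarce genes. NEUROG1 rose by 0.93 on VN (SE 0.249, adjusted p = 0.0312), and NEUROD1 by 1.37 (SE 0.363, adjusted p = 0.0263) and NEUROD4 by 1.25 (SE 0.348, adjusted p = 0.0340) on VNP2. These 3 had 315, 140 and 174 estimated counts over all 8 libraries.

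**Figure D5:**
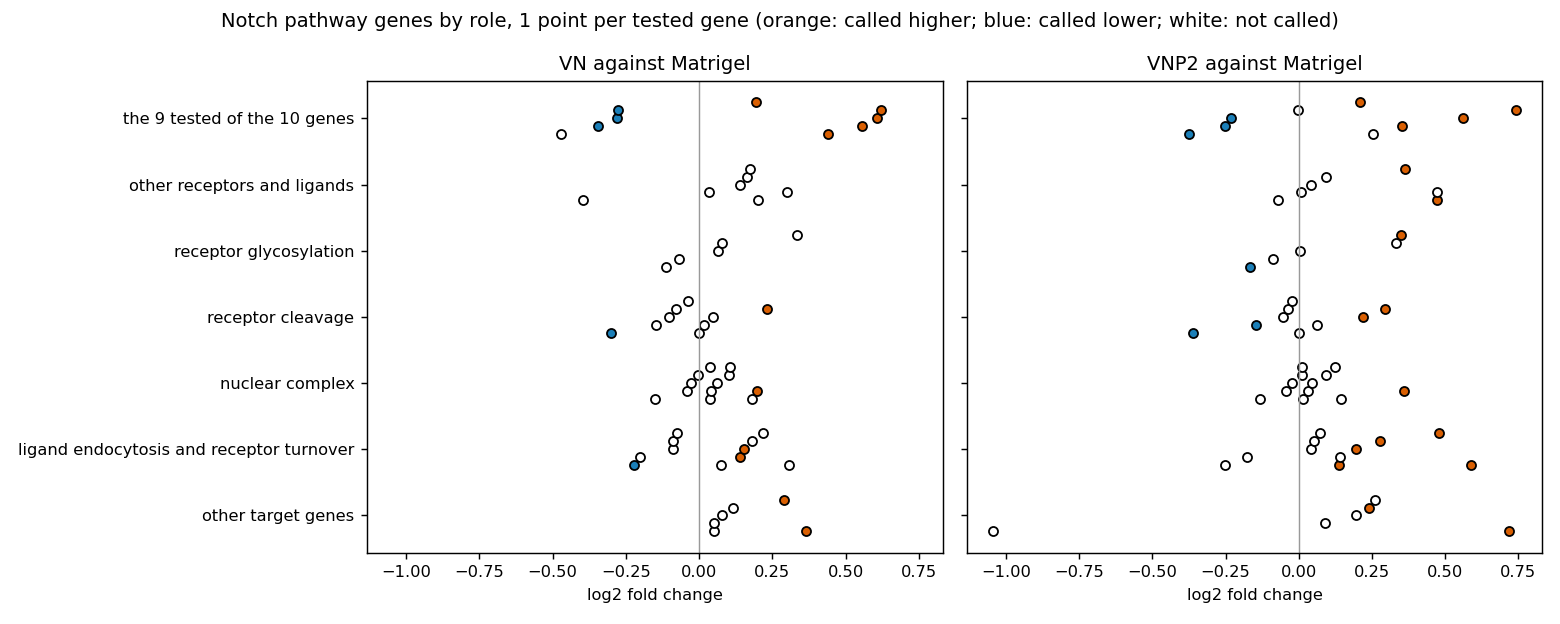
Log2 fold change (horizontal axis) of each tested gene against Matrigel, 1 point per gene, grouped by role and coloured orange where called higher, blue where called lower and white where not called. Most genes of cleavage, the nuclear complex and turnover lie near 0.

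For each gene called across the substrates, the genes most like it over the 8 libraries were listed by Pearson correlation of log2 levels among 12995 genes, as a description in which libraries of 1 substrate share their coating. DLL1 was nearest to VSTM2A (r = 0.985), ZNF568 and E2F8, and DLL3 to CD200 (r = 0.992), IGFBPL1 and DPP6. HEY1 was nearest to THSD7A (r = 0.992), ST18 and INSM2, HES1 to CELF2 (r = 0.996), GSE1 and DCTN4, and HES5 to MTERF2 (r = 0.980), C21orf58 and AFF2. NOTCH2 was nearest to THBS1 (r = 0.993), HCFC1R1 and LIN28A, NOTCH3 to TAX1BP3 (r = 0.995), MFSD10 and SLC25A3, and JAG1 to SPATS2L (r = 0.997), DDX21 and SPTBN5. No gene stood among the nearest of more than 1 of the 8.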

How the data were processed

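Polyadenylated RNA of the 8 libraries was read from both ends in stranded libraries. The authors trimmed reads with Trim Galore and ran Salmon on GENCODE v32 transcripts (GRCh38.p13). The deposited estimated counts and TPM are per transcript, with its length and effective length. The authors also deposited a normalized signal per gene, made by importing the estimates into DESeq2 1.27.12 through tximport.

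Transcripts were matched by identifier to GENCODE v29 (205225 of 226608, holding 98.8 to 98.9% of counts). Estimated counts were summed per gene, rounded, and fitted with average transcript length offsets in edgeR 4.0.16 (R 4.3.3). Of 58217 genes, filterByExpr (minimum count 10, minimum total 15) kept 18201. One quasi-likelihood fit with TMM held all libraries, without a replicate block. Two-sided tests were adjusted by Benjamini-Hochberg over every tested gene, and called means an adjusted p under 0.05. For NOTCH1 the matched transcripts gave 0.00818 of the authors' value, since the older release lacks its main transcript. Genes outside 0.8 to 1.25 of the authors' value, a rule set after values were seen, were therefore taken from the deposited table with limma 3.58.1 on log2(normalized count + 1), on 17931 genes with a mean of at least 10. Fold changes on that scale understate changes of low genes. Normalized counts are those values, or counts divided by the fitted offsets.

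TPM was summed per gene over matched transcripts for levels and markers, also for PTPRZ1, whose matched transcripts were incomplete. Likeness used log2 values with a prior of 2 and genes with a mean of at least 100. Named genes are the 10, every listed pathway gene called in a pair, the most abundant of each list, and the 3 most alike. Some listed genes that were not called are named as well. The genes and all lists were chosen with earlier results of these data known. Alternatives were DESeq2 1.42.0, RLE normalization, no filter, no offsets, a replicate block, the pair's libraries alone, limma on the authors' table with pseudocounts 1 and 8, and each library left out. Counts over the pathway lists under these alternatives were added after the data were seen. Scripts used Python 3.11.15 and pandas 2.3.3. The fits were tested on simulated counts without length offsets, so that test did not cover the offsets. A result for 1 listed gene is not reported here.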

Additional observations from a re-analysis of the deposited data

How the results depend on the processing

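The numbers of called genes among the 9 stayed at 8 for VN against Matrigel, 7 for VNP2 against Matrigel, 2 for VNP2 against VN and 8 across the substrates with DESeq2, RLE normalization, limma on the authors' table (pseudocount 1 or 8) and a replicate block, and in the 3 pair comparisons with the libraries of the pair alone. They were 8, 8, 3 and 8 with no filter on low counts, and 7, 6, 1 and 7 without length offsets. With each library left out in turn they ranged from 6 to 8, from 4 to 8, from 1 to 3 and from 6 to 8, the 4 arising without Matrigel replicate 3. Genes called among all tested then ranged from 1188 to 3899, from 1609 to 3608, from 547 to 1996 and from 1879 to 4975. The lowest count of VN against Matrigel came without Matrigel replicate 3, and the highest of VNP2 against VN came without VN replicate 1. Leaving out a Matrigel library leaves 1, which is then assumed to vary like the other groups. No called fold change changed sign. Same-numbered VN and VNP2 libraries deviated from their group means with correlations of -0.0919, 0.0137 and -0.112. Differently numbered ones gave -0.111 to 0.177. Matrigel replicate 2 gave 0.14 with VN replicate 2, and Matrigel replicate 3 gave -0.0755 with VN replicate 3. With so few libraries per group, these values cannot settle whether replicate numbers pair the samples. The replicate block changed no call among the 9 and gave 3389, 3170, 1146 and 3992 called genes against 2778, 3016, 928 and 3518. The pair's libraries alone left 3 of the other pathway genes called on VN instead of 8. Counting error is widest for scarce genes, and JAG2, with 935 estimated counts, had standard errors of up to 0.281 on the log2 scale, while HEYL, with 535, had up to 0.183.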
